A study of Mus musculus with 9 samples.

Results

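The genes described here are 9 transcriptional regulators and feedback inhibitors of cytokine signalling in intestinal epithelial cells (IECs): the signal transducers Stat2 and Stat3, the interferon regulatory factors Irf1, Irf2, Irf7, Irf8 and Irf9, and the suppressors of cytokine signalling Socs1 and Socs3. They were taken by symbol, with earlier results of these data known, and all 9 were among the 29288 genes of the count table and among the 18933 genes that passed the filter on low counts. RNA was sequenced from IECs sorted as live EpCAM+ CD45- CD31- Ter119- cells from proximal small intestinal crypts of wild-type female C57BL/6J mice, 7–10 weeks old per the study's methods. Controls were 3 samples from mice injected intraperitoneally with PBS and taken at 18 h, 3 samples were taken 18 h after injection of 2 µg of α-galactosylceramide (αGalCer; 18h-αGal), and 3 further samples 72 h after the same dose (72h-αGal). αGalCer is a lipid antigen that, bound to CD1d on other cells, activates natural killer T (NKT) cells. No PBS mice were sampled at 72 h, so that at 72 h the treatment and the time of sampling cannot be told apart.

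Cytokine receptors at the cell surface activate Janus kinases, which phosphorylate STAT proteins. Dimers of STAT proteins bind GAS elements, while STAT2 and IRF9 are subunits of the complex ISGF3, which binds interferon-stimulated response elements (ISRE) after type I and type III interferons. STAT3 carries signals of the interleukin-6, interleukin-10 and interleukin-22 receptors, and in IECs interleukin-22 is a main activator of it. IRF1 is an activator that is itself induced through GAS elements, IRF2 competes with it for the same DNA elements, IRF7 amplifies interferon responses and IRF8 is best known as a factor of myeloid cells. SOCS1 and SOCS3 are induced by STATs and block the receptors and kinases upstream of them.

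All 9 are protein-coding genes, placed here by the GENCODE vM39 annotation of GRCm39. The STAT genes are Stat2 at chr10:128106352-128128735 (plus strand), and Stat3 at chr11:100775924-100830450 (minus strand). The IRF genes are Irf1 at chr11:53660812-53669200 (plus strand), Irf2 at chr8:47192222-47300501 (plus strand), Irf7 at chr7:140842619-140846398 (minus strand), Irf8 at chr8:121463096-121485659 (plus strand), and Irf9 at chr14:55841028-55847812 (plus strand). The SOCS genes are Socs1 at chr16:10600104-10603875 (minus strand), and Socs3 at chr11:117856905-117860898 (minus strand).

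To show which of these elements lie at the genes themselves, 250 bases before each annotated RefSeq start were searched on both strands for the GAS letters TTCNNNGAA and for the ISRE core letters GAAANNGAA. The GAS letters occurred in 7.02% and the ISRE core in 7.129% of 32851 windows of all genes. Counted by gene, with a match in any window, the shares were 8.13% and 8.181% of 27025 genes. The stretches of 30 bases around the matches are given 5′ to 3′ in the direction of transcription, with the matched letters in capitals. They were taken from RefSeq (GRCm38.p6) and placed by an exact match in GRCm39. Matches were found for Stat2, Irf1, Irf2, Irf8, Socs1 and Socs3, and none for Stat3, Irf7 and Irf9. Irf1, Irf8 and Irf9 each had 2 windows, and for Irf1 and Irf8 the matches lay in the first window only.
Irf1: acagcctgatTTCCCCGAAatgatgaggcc
Irf8: tTTCTCGGAAagagagcgcTTCAGAGAAgg
Socs3: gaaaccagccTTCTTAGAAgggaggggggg
Irf2: gtGAAAATGAAattgacttTTCCGAGAAat
Stat2: gcaccctggtTTCAGTTTCctttccctaga
Socs1: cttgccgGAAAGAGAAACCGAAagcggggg
The Irf1 stretch lay at chr11:53660741-53660770 on the plus strand, with the GAS letters at bases -90 to -82 from the start. The Irf8 stretch lay at chr8:121462925-121462954 on the plus strand, and it held the GAS letters at -171 to -163 and again at -153 to -145. The Socs3 stretch, at chr11:117860327-117860356 on the minus strand, held GAS letters at -154 to -146. The Irf2 stretch, at chr8:47192537-47192566 on the plus strand, held both kinds, an ISRE core at -241 to -233 and GAS letters at -224 to -216. The Stat2 stretch, at chr10:128106136-128106165 on the plus strand, held the ISRE core on the reverse strand at -221 to -213, so that its complement is printed. The Socs1 stretch, at chr16:10603461-10603490 on the minus strand, held 2 overlapping ISRE cores at -83 to -75 and -77 to -69. In GENCODE vM39, annotated exons of any gene took up all 250 bases before the Irf1, Socs1, Stat3 and first Irf9 starts. They took up 225 of the bases before Socs3 and 190 of those before Irf2, so these windows are not purely upstream sequence. Exons before Irf1 and Stat3 included those of the opposite-strand genes Gm74496 and Gm46295. The printed Irf1 stretch ended before the annotated start of the Irf1 gene in GENCODE vM39. For Irf8, only 1 base of the first window was exonic. That whole window, chr8:121462847-121463096 on the plus strand, is printed to show both GAS matches in their setting.
Irf8: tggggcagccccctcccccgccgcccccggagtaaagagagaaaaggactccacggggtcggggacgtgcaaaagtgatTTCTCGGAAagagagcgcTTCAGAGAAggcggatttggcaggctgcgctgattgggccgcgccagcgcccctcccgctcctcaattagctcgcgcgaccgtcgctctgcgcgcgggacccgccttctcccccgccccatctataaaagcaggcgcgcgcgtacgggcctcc
These matches are a description of letters in the reference, and no binding was measured.

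The libraries held 8887861 to 32722293 counts in all. Control replicate 3 was the smallest of the 9, and its level of many interferon-responsive genes stood above that of the other controls, as given beside each result below. Between 71.6% and 73.9% of the counts from 1 to 10 were even numbers in each library. The sorted cells carried epithelial markers, whose list of 10 genes summed to between 110136 and 150139 normalised counts. For the 13 lymphocyte markers present in the table the sums were 66.2 to 217 in the 9 libraries, and for the 14 myeloid markers 342.3 to 932.4. Ptprc, which encodes the CD45 that the sort excluded, had 29.4, 14.2 and 14.3 normalised counts in controls, 25.2, 39.5 and 26.2 in 18h-αGal, and 57.9, 35.3 and 4.42 in 72h-αGal. The T cell marker Cd3e was at 0 in all 3 controls, at 1.26, 0 and 0 in 18h-αGal, and at 24.3, 8.07 and 1.47 in 72h-αGal. The other T cell markers overlapped between controls and 72h-αGal. Cd3g was at 0 to 7.64 in controls and 0 to 10.1 in 72h-αGal, Cd8a at 0 to 19.0 and 0 to 13.9, and Cd4 at 0 to 9.51 and 0. The B cell marker Ms4a1 was at 0 in controls, at 2.76 to 6.31 in 18h-αGal and at 7.36 to 23.2 in 72h-αGal. The B cell markers Cd79a and Cd79b overlapped between controls and 72h-αGal. Cd79a was at 19.0 to 42.9 in controls and 25.5 to 28.0 in 72h-αGal, and Cd79b at 0 to 14.2 and 13.9 to 22.1. In 18h-αGal, Cd79b was at 37.8, 14.4 and 44.2, above all controls but not called (edgeR adjusted p = 0.221). Cd79a was there at 48.6, 1.80 and 8.28, overlapping with the controls. Cd3e, Cd3g, Cd4 and Ms4a1 did not pass the filter on low counts. The macrophage marker Adgre1 was at 0 in controls and 72h-αGal, and at 0, 3.59 and 5.52 in 18h-αGal. Other myeloid markers went the other way or were level. C1qa, at 31.7, 0 and 0 in controls, and Tyrobp, at 4.70, 0 and 7.13, were at 0 in every 18h-αGal library. Csf1r was at 4.75 to 19.9 in controls and 11.7 to 19.5 in 18h-αGal. Adgre1, C1qa and Tyrobp did not pass the filter on low counts. The summed level of 10 endothelial and stromal markers was lower in the 18h-αGal libraries (29.6 to 51.1) than in the controls (105.4 to 137.9), and it was 58.5 to 103.1 at 72 h. Only 4 of these 10 markers passed the filter on low counts, and none of them was called at 18 h against control. Olfm4, a crypt stem cell marker, had normalised counts of 40052, 47952 and 26289 in controls and 23867, 18022 and 5859 in 18h-αGal, without passing the test (adjusted p = 0.245). Since the samples were bulk, fewer cells of a type and less RNA per cell cannot be told apart, and the part of these shifts in the results below was not tested.

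The first question was which of the 9 regulators changed 18 h after NKT cell activation. By edgeR's quasi-likelihood test over all genes, with Benjamini-Hochberg adjustment, 4 of the 9 were called at an adjusted p under 0.05, beside 5.96% of all genes tested. Irf1, Irf8 and Socs1 rose, beside 3.27% of all genes called higher, and Socs3 fell. The 3 libraries of each group did not overlap for 6 of the 9 genes, beside 23.8% of all genes tested. The median log2 fold change was 0.578 over the 9 genes and -0.030 over all genes. Values of single genes are normalised counts, the raw count divided by 1 size factor per library, and can be compared between libraries but not between genes of different length.

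**Figure D1:**
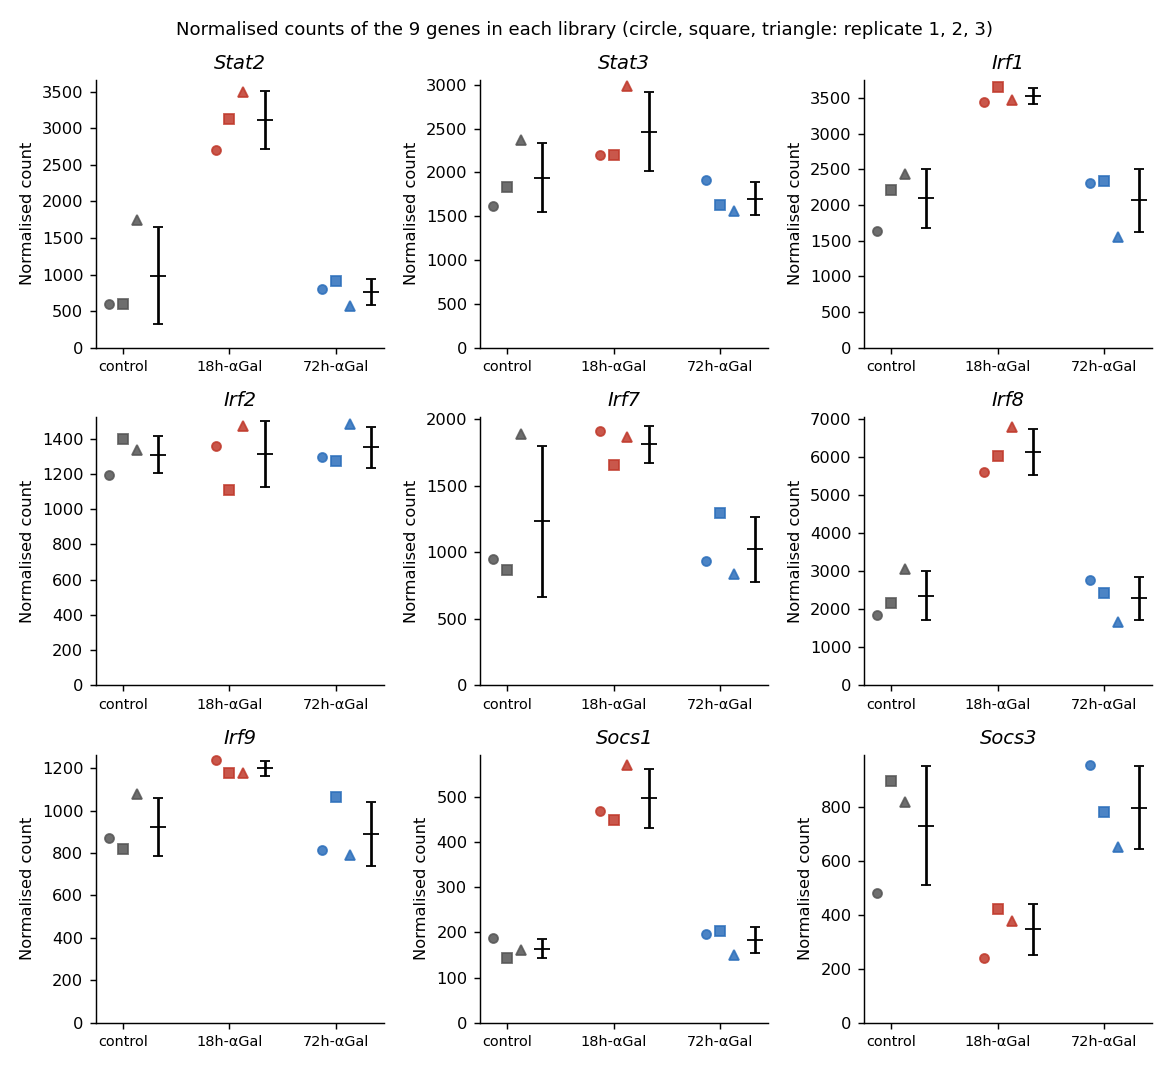
Normalised counts (vertical axis) of each of the 9 genes in the control, 18h-αGal and 72h-αGal libraries, with 1 marker shape per replicate and the mean ± SD of 3 libraries at the right of each group. Irf1, Irf8 and Socs1 were higher in all 3 18h-αGal libraries than in any control, Socs3 was lower, and control replicate 3 lay far above the other controls for Stat2 and Irf7.

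Irf8 showed a clear separation of groups. Its normalised counts were 1835, 2171 and 3067 in control replicates 1, 2 and 3, and 5598, 6038 and 6793 in 18h-αGal. Every 18h-αGal library lay above every control, and the log2 fold change was 1.39 ± 0.20 (SE; edgeR adjusted p = 0.0020, n = 3 per group). The rise stayed called in each of the 15 alternative analyses, with log2 fold changes between 1.24 and 1.62. The myeloid marker list, given because IRF8 is best known from myeloid cells, summed to 342.3 to 624.9 in controls and 426.4 to 699.3 in 18h-αGal, and the groups overlapped. Most of each sum was Cd68, at 465.8, 368.3 and 261.5 in controls and 571.9, 433.9 and 303.6 in 18h-αGal. The sums therefore say little about the other myeloid markers. Irf1, the activator induced through GAS elements, had 1634, 2214 and 2434 normalised counts in controls and 3443, 3651 and 3473 in 18h-αGal, again without overlap. Its log2 fold change was 0.76 ± 0.16 (edgeR adjusted p = 0.0136). The call was lost without control replicate 1 (log2 fold change 0.61, adjusted p = 0.0763) and without 18h-αGal replicate 2 (0.73, adjusted p = 0.0643). Of the 50-base words in Irf1 transcripts, 38.2% also occur in other annotated genes, most often in Gm17334 on the opposite strand. The strand setting of the counting was not stated in the sources used here, so reads of these loci cannot be told apart from those of Irf1. The share of such words was 9.49% for Socs1, 6.71% for Socs3, 6.23% for Stat3 and 6.23% for Irf9. For Stat2, Irf2, Irf7 and Irf8 it lay between 0.299% and 0.724%.

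Irf2, the competitor of Irf1, was level throughout, with 1192 to 1398 normalised counts in controls, 1106 to 1474 in 18h-αGal and 1270 to 1485 in 72h-αGal. Its log2 fold change at 18 h was 0.01 ± 0.14 (edgeR adjusted p = 0.975). The log2 ratio of Irf1 to Irf2 counts within each library was 0.455, 0.663 and 0.868 in controls and 1.342, 1.723 and 1.236 in 18h-αGal. The groups were separate, with a mean difference of 0.772, and the exact two-sided permutation test of 3 against 3 libraries gave its smallest possible p of 0.1 (0.15 after adjustment over the 6 ratio comparisons).

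By edgeR, Stat2 and Irf7 were called at 18 h only when control replicate 3 was left out. Stat2, the subunit that is specific to ISGF3, had 597, 600 and 1747 normalised counts in controls and 2699, 3133 and 3492 in 18h-αGal. All 18h-αGal libraries lay above all controls, but the spread of the controls was large and the log2 fold change of 1.70 ± 0.43 did not pass the test (edgeR adjusted p = 0.0670). DESeq2 called it (adjusted p = 0.00817), and so did limma-trend on the deposited normalised counts (adjusted p = 0.0411). Without control replicate 3 the log2 fold change was 2.38 ± 0.19 (edgeR adjusted p = 7.42e-07). Irf7 had 950, 864 and 1888 normalised counts in controls and 1915, 1656 and 1868 in 18h-αGal, so that control replicate 3 lay within the range of the treated libraries. Its log2 fold change was 0.58 ± 0.27 (edgeR adjusted p = 0.255) with all libraries, and 1.0 ± 0.17 (adjusted p = 0.00224) without control replicate 3. Irf9, the DNA-binding subunit of ISGF3, had 870, 818 and 1079 normalised counts in controls and 1237, 1179 and 1178 in 18h-αGal. The groups did not overlap, with the 18h-αGal libraries close to each other, but the log2 fold change of 0.39 ± 0.15 was not called (edgeR adjusted p = 0.153). Exons of Irf9 share 282 bases with Rnf31 on the same strand.

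Stat3, the STAT of the interleukin-6 and interleukin-22 receptor families, was not called at 18 h. Its normalised counts were 1612, 1832 and 2373 in controls and 2204, 2202 and 2984 in 18h-αGal, and the groups overlapped. The log2 fold change was 0.36 ± 0.16 (edgeR adjusted p = 0.205), and among the 15 alternatives it was called only without control replicate 3 (0.52, adjusted p = 0.0484).

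The feedback inhibitors moved in opposite directions. Socs1, which inhibits JAK kinases downstream of interferon receptors, had 187, 144 and 162 normalised counts in controls and 469, 449 and 571 in 18h-αGal, a log2 fold change of 1.60 ± 0.22 (edgeR adjusted p = 0.0011). The groups were far apart, and the rise was called in all 15 alternatives, between 1.49 and 1.71. Socs3, the inhibitor of the gp130 receptor family, had 480, 896 and 818 normalised counts in controls and 241, 421 and 379 in 18h-αGal. It fell by 1.07 ± 0.25 on the log2 scale (edgeR adjusted p = 0.0238). The call was lost without control replicate 2 (adjusted p = 0.0918), without 18h-αGal replicate 1 (adjusted p = 0.0803) and when only these 2 groups were fitted (adjusted p = 0.0597). The log2 ratio of Socs1 to Socs3 counts was -1.360, -2.631 and -2.330 in controls, and 0.961, 0.092 and 0.589 in 18h-αGal. Socs3 reads thus outnumbered Socs1 reads in every control library, and Socs1 reads outnumbered Socs3 reads in every 18h-αGal library. The mean difference was 2.654, at the smallest possible exact permutation p of 0.1 (adjusted 0.15).

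**Figure D2:**
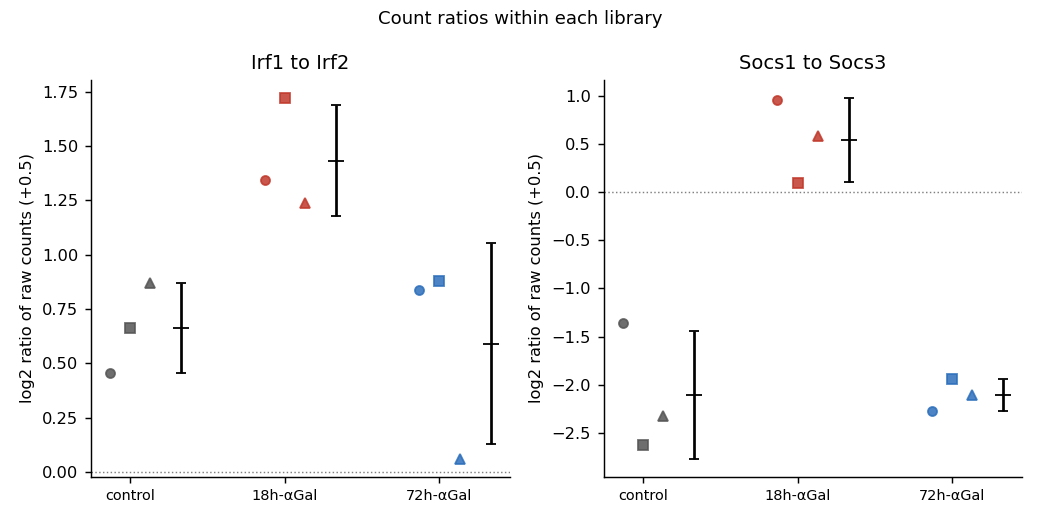
Log2 ratio of raw counts (plus 0.5) of Irf1 to Irf2 and of Socs1 to Socs3 in each library (vertical axes), with the mean ± SD of 3 libraries at the right of each group. The Socs1 to Socs3 ratio was above 0 in the 3 18h-αGal libraries and below 0 in the other 6.

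The next question was whether the changes were still present at 72 h. No member was called in 72h-αGal against control by edgeR, DESeq2 or limma-trend, beside 0.0264% of all genes called by edgeR. By the same edgeR test, 0 of the 9 had an unadjusted p under 0.05, beside 1125 of the 18933 genes tested. The groups overlapped for all 9 genes, beside 12.7% of all genes without overlap. The normalised counts at 72 h were 2780, 2419 and 1676 for Irf8, 2310, 2333 and 1548 for Irf1, 197, 204 and 151 for Socs1 and 958, 784 and 651 for Socs3. Those of Stat2 were 802, 913 and 567, overlapping with the controls. The largest log2 fold change in size was -0.33 ± 0.43 for Stat2, and the others lay between -0.24 for Irf7 and 0.17 for Socs1.

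Directly compared with 18h-αGal, 6 of the 9 members were called in 72h-αGal, beside 10.2% of all genes, and 8 of the 9 did not overlap, beside 32.8%. Stat2, Stat3, Irf1, Irf8 and Socs1 were lower, beside 6.04% of all genes called lower, and Socs3 was higher. The control libraries cancel out of this comparison, apart from their part in the estimate of the spread. Log2 fold changes were -2.02 ± 0.44 for Stat2 (edgeR adjusted p = 0.0280), -1.43 ± 0.22 for Socs1 (adjusted p = 0.0013), -1.42 ± 0.20 for Irf8 (adjusted p = 0.0013) and -0.77 ± 0.16 for Irf1 (adjusted p = 0.0086). Socs3 was higher at 72 h by 1.21 ± 0.25 (adjusted p = 0.0085). Stat3, with 1914, 1629 and 1564 normalised counts at 72 h, was lower by a small amount (-0.52 ± 0.16, adjusted p = 0.0453), a call that was lost in 10 of 15 alternatives. The call of Stat2 was lost in 8 of 15, with log2 fold changes between -2.17 and -1.85. Irf7 (-0.82, adjusted p = 0.0840) and Irf9 (-0.42, adjusted p = 0.0943) missed the threshold, although neither overlapped with 18h-αGal.

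**Figure D3:**
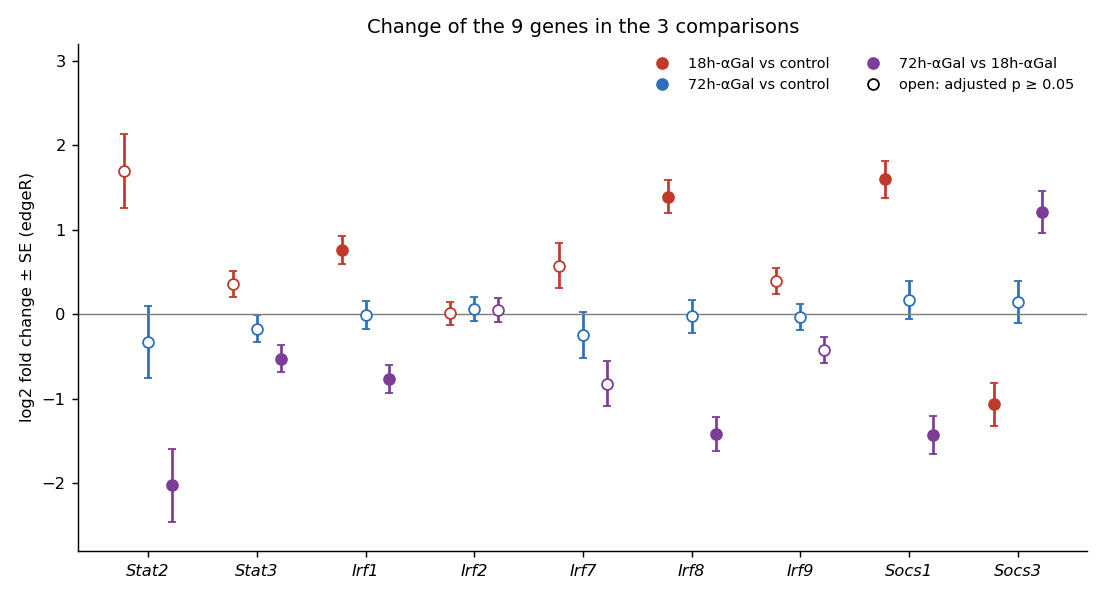
Log2 fold change ± SE by edgeR (vertical axis) of the 9 genes in each of the 3 comparisons, filled where the adjusted p was under 0.05. At 18 h against control Irf1, Irf8, Socs1 and Socs3 were called, and Stat2 had the largest change (1.70 ± 0.43) without being called. No member was called at 72 h against control, and both comparisons against control share the same control libraries. At 72 h against 18 h, Stat2, Stat3, Irf1, Irf8, Socs1 and Socs3 were called.

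Levels can be set beside each other between genes only per length, here as normalised counts per kb of annotated exon. In controls the order was Irf1 (447.6 ± 88.4, SD, n = 3), Irf7 (326.4 ± 150.3), Irf8 (242.5 ± 65.5), Socs3 (205.4 ± 62.1), Stat3 (192.0 ± 38.8), Irf9 (159.1 ± 23.8), Stat2 (155.6 ± 105.2), Irf2 (117.0 ± 9.45) and Socs1 (48.5 ± 6.31). Neighbours in this order from Irf1 to Irf2 differed by less than the larger of their SDs. In 18h-αGal the order was Irf1 (752.9 ± 24.0), Irf8 (631.8 ± 62.1), Stat2 (492.9 ± 63.0), Irf7 (479.6 ± 36.6), Stat3 (244.0 ± 44.7), Irf9 (206.5 ± 5.84), Socs1 (146.8 ± 19.4), Irf2 (117.4 ± 16.8) and Socs3 (97.5 ± 26.5). There, Stat2 and Irf7, Stat3 and Irf9, and Irf2 and Socs3 were the neighbours that differed by less than the larger SD. Socs1 stood below Socs3 per kb in controls and above it at 18 h, and Stat2 moved past Irf9 and Stat3. These levels use the union of annotated exons, which may be longer than what IECs transcribe.

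Across the 9 libraries, log2 CPM of Stat2 and Irf8 had a Pearson correlation of 0.969, Irf1 and Irf8 of 0.967, and Irf7 and Irf9 of 0.956. Irf2 correlated with the other 8 members between -0.215 and 0.129, and Socs3 between -0.829 (Socs1) and 0.053 (Irf2). These values are descriptions over 9 libraries that share 3 groups. The genes most like Stat2 were Usp18 (0.991), B2m (0.991) and Adar (0.989). Those most like Irf7 were Apol7a (0.985), Oas3 (0.984) and Fas (0.976), and those most like Irf9 were Gm50237 (0.986), Oasl1 (0.983) and Sprr2a1 (0.977). Irf8 was closely matched by Gsdmc4 (0.990) and Gm12250 (0.989), and Irf1 most like Nup50 (0.981), Ly6a (0.977) and Mapkapk2 (0.976). Socs1 was most like Phf8 (0.989), Spcs1 (0.986) and Gfm1 (0.985). Socs3 was most like Cpt1a (0.951), Gpr55 (0.948) and Klf10 (0.946), and Stat3 most like B4galt1 (0.982), Tnfaip8l3 (0.969) and Vwa5a (0.967). Irf2 had the weakest matches, Gm37776 (0.910), Ccdc179 (0.904) and Gm8629 (0.895).

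Other genes of the same families were examined next. Stat5a, Stat5b and Stat6 had log2 fold changes between -0.08 and -0.06 at 18 h and were not called. Irf3 and Irf5 had log2 fold changes of 0.18 and 0.58 (edgeR adjusted p = 0.507 and 0.487). Stat4 and Irf4 did not pass the filter on low counts. Among the 6 other SOCS genes, Socs2, an inhibitor of growth hormone signalling, fell by 0.57 ± 0.12 (adjusted p = 0.0097), from 2221 to 2477 normalised counts in controls to 1422 to 1711. The other 5 were not called, beside 5.96% of all genes called. Against 18h-αGal, Socs2 was higher (0.58, adjusted p = 0.0060) and Socs4 lower (-0.58, adjusted p = 0.0125) at 72 h, beside 10.2% of all genes called.

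Upstream of the members, 1 of 16 receptors and kinases was called at 18 h, a share close to the 5.96% of all genes, with a median log2 fold change of -0.025 beside -0.030 for all genes. The called gene was Il13ra1, a subunit of interleukin-4 and interleukin-13 receptors, at 1734, 1525 and 2774 normalised counts in controls and 3590, 4122 and 4635 in 18h-αGal (1.05 ± 0.20, edgeR adjusted p = 0.0080). The other 15 had log2 fold changes between -0.62 and 0.41. Over the whole list, 3 of 16 genes had an unadjusted p under 0.05 by edgeR, beside 3947 of the 18933 genes tested. At 72 h against 18 h, Il13ra1 and Jak2 were lower (-1.36 and -0.49), beside 6.04% of all genes called lower. Of 12 other negative regulators, Usp18, which restrains type I interferon receptors, rose (2.35 ± 0.56, adjusted p = 0.0316), with 39.9, 41.8 and 168.8 normalised counts in controls and 310.2, 371.0 and 505.0 in 18h-αGal. Irf2bpl fell by 0.78 ± 0.17 (adjusted p = 0.0148). The other 10 were not called, beside 5.96% of all genes called. At 72 h against 18 h, Usp18 and Ptpn6 were lower, and Irf2bpl and Irf2bp2 were higher, beside 10.2% of all genes called.

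The genes downstream were described by 3 lists, written from general knowledge with earlier results of these data known. Of 20 targets of IRF1 and GAS signalling, 15 rose at 18 h, beside 3.27% of all genes, and 5 were not called. The median log2 fold change of the list was 2.53, beside -0.030 over all genes. Ifi47 (307.8, 206.0 and 401.8 normalised counts in controls, 1809, 1910 and 1625 in 18h-αGal), the transfer RNA synthetase gene Wars1 and the GTPase gene Irgm1 had the smallest p. Their log2 fold changes were 2.57 ± 0.21, 1.83 ± 0.16 and 2.52 ± 0.21. Leaving out 1 library at a time gave 10 to 17 called genes, 17 without control replicate 3. Of 20 ISGF3 targets, 3 rose, beside the same 3.27% of all genes, with a median of 1.37: Ifit2 (3.43 ± 0.52, edgeR adjusted p = 0.0024), Oas1a (1.60 ± 0.32, adjusted p = 0.0114) and Mx1 (1.99 ± 0.50, adjusted p = 0.0288). Control replicate 3 was the highest control for 20 of these 20 genes and for 16 of the 20 IRF1 and GAS targets. Without it, 17 of the 20 ISGF3 targets were called, with a median of 2.33, while leaving out any other library gave 1 to 3. The difference between the 2 lists was not tested.

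**Figure D4:**
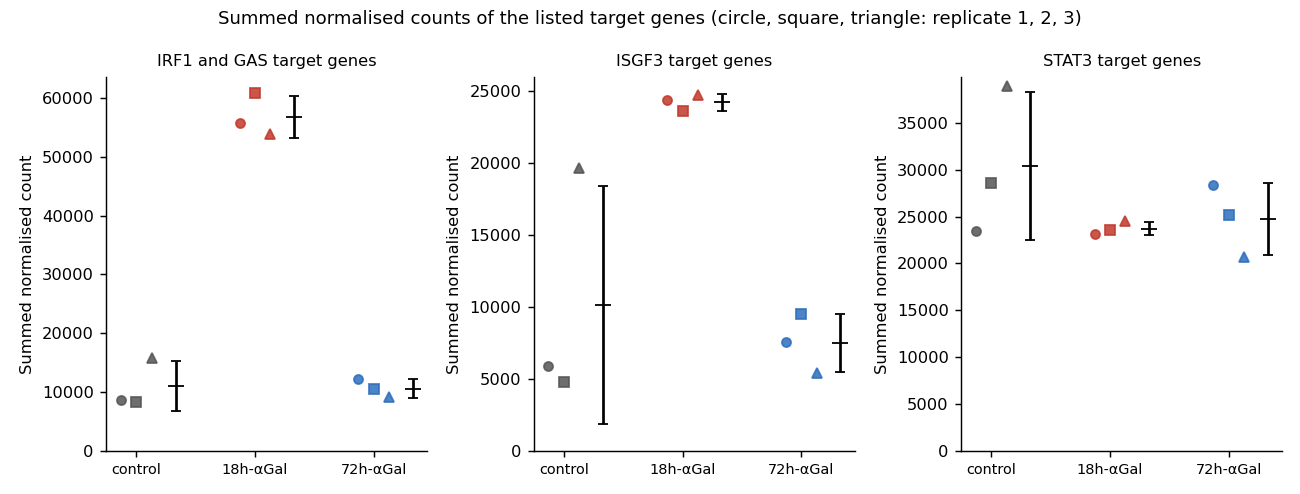
Summed normalised counts (vertical axes) of the listed IRF1 and GAS targets, ISGF3 targets and STAT3 targets in each library, with the mean ± SD of 3 libraries. Control replicate 3 lay at 19675 for the ISGF3 list, against 5898 and 4806 in the other controls and 23604 to 24752 in 18h-αGal.

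Of 13 STAT3 targets tested, 1 rose and 1 fell, beside 5.96% of all genes called. The median log2 fold change of the list was -0.278, beside -0.03 over all genes. The cyclin gene Ccnd1 rose by 1.27 ± 0.15 (edgeR adjusted p = 0.00026) from 1321, 1630 and 1436 normalised counts in controls to 3893, 3817 and 2801, and Junb, an AP-1 subunit, fell by 0.63 ± 0.13 (adjusted p = 0.0111). The antimicrobial lectin gene Reg3b had 2437, 4677 and 8585 normalised counts in controls and 1177, 1096 and 943.8 in 18h-αGal, without passing the test (-2.27 ± 0.51, adjusted p = 0.0539). Sbno2 went the other way and also missed the threshold (0.57 ± 0.16, edgeR adjusted p = 0.0509). Its normalised counts were 2197, 2179 and 3098 in controls and 3196, 3525 and 4265 in 18h-αGal. Saa1 and Osmr were not analysed here. At 72 h against 18 h, 16 of the 20 IRF1 and GAS targets and 5 of the 20 ISGF3 targets were lower, beside 6.04% of all genes. In the same comparison Ccnd1 and Sbno2 were lower and Junb was higher, beside 10.2% of all genes called. Without control replicate 3, 16 ISGF3 targets were called lower.

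**Figure D5:**
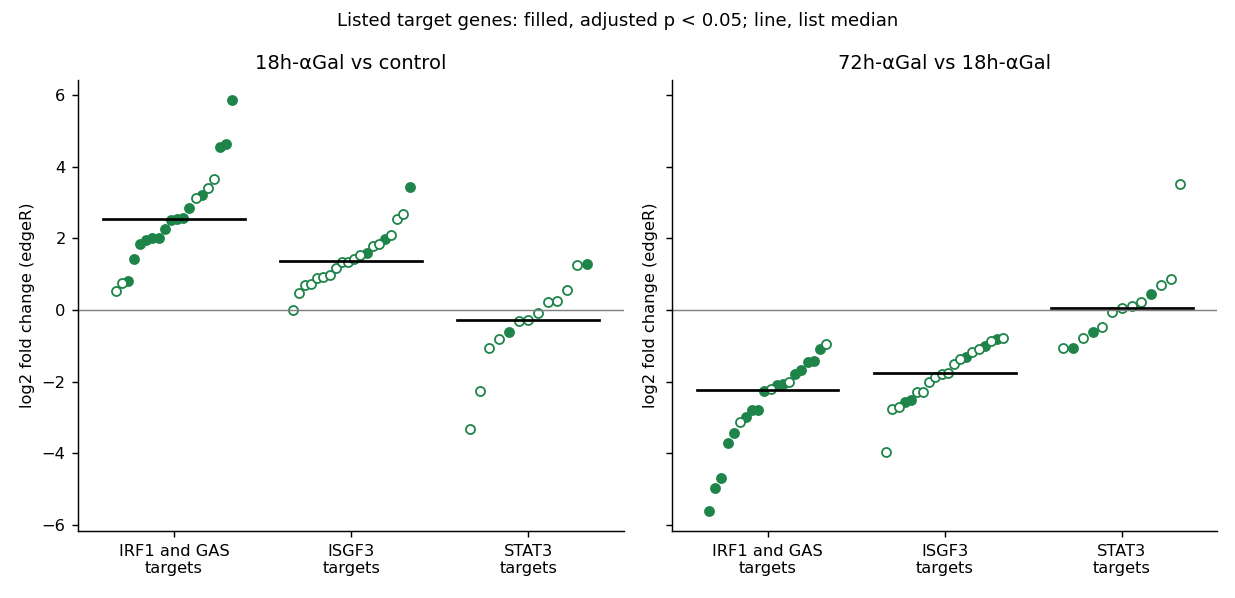
Log2 fold change by edgeR (vertical axis) of each tested gene of the 3 target lists, ordered by value, at 18 h relative to control and at 72 h relative to 18 h. Filled points passed an adjusted p of 0.05 and lines mark list medians, 2.53 for the IRF1 and GAS targets and 1.37 for the ISGF3 targets at 18 h.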

How the data were processed

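The authors sorted IECs into lysis buffer, made ribodepleted directional libraries and mapped reads with HISAT2. The study's methods name the build GRCm39, whereas the submitters' processing notes list GRCm38 and mm10, with HISAT2, featureCounts, Subread and DESeq2 1.42.0. The annotation release and strand setting are not given in the sources used here. The authors deposited raw counts per gene, and normalised counts (a signal without length correction) in which each library's counts were divided by its size factor. Of 29288 identifiers, 28480 matched GENCODE vM39 (GRCm39), from which symbols were taken. Libraries held 8887861 to 32722293 counts, and a floor of 3 counts was 0.0917 to 0.338 CPM, for counting error only.

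Raw counts were tested with edgeR 4.0.16 in R 4.3.3 (filterByExpr, TMM, robust quasi-likelihood fit of 9 libraries, Benjamini-Hochberg adjustment over 18933 genes, threshold 0.05). The fit was tested on simulated data. Standard errors came from the F statistic. The study's methods give 3 mice per group. The labels number the samples of a group as replicates without naming the animals, and p-values measure the spread between these samples. Correlations used log2 CPM with a prior count of 2. Alternatives were DESeq2 1.42.0, RLE scaling, no filter, 2 groups only, a replicate block, limma-trend (limma 3.58.1, pseudocount 1) and leaving out each library. Ratios used a pseudocount of 0.5.

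The members and lists were chosen with earlier results of these data known. Genes named were the members, other genes of their families, up to 3 called genes per list and direction with the smallest p, and the 3 genes most correlated with each member. Other list genes (Olfm4, Reg3b, Ptprc, Cd3e, Cd3g, Cd8a, Cd4, Ms4a1, Cd79a, Cd79b, Adgre1, C1qa, Tyrobp, Csf1r, Cd68, and Sbno2 at 18 h) were named after their values were seen. Counts of list calls without a library were added after seeing the data. Some genes that met this rule are not reported here.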

Additional observations from a re-analysis of the deposited data

Results flagged for a closer look

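For 6 genes, the change at 18 h differed from the change at 72 h, tested directly as 72h-αGal against 18h-αGal (edgeR, adjusted p under 0.05). The log2 differences were -2.02 for Stat2, -0.52 for Stat3, -0.77 for Irf1, -1.42 for Irf8, -1.43 for Socs1 and 1.21 for Socs3.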

How the results depend on the processing

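The calls of Irf8 and Socs1 at 18 h, and of Irf1, Irf8, Socs1 and Socs3 between 72 h and 18 h, held under all 15 alternatives. Of all genes, 1128 were called at 18 h, 1720 by DESeq2, 593 with only the 2 groups and 432 to 1556 with 1 library left out. At 72 h against control 5 genes were called, 31 by DESeq2, 13 without the filter, 1 with the replicate block and 0 to 20 with 1 library left out. Between 72 h and 18 h the leave-one-out range was 831 to 2593 around 1936. Members called at 18 h ranged from 3 to 7 with 1 library left out, with 7 (Stat2, Stat3 and Irf7 added) without control replicate 3.

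Same-numbered libraries of different groups correlated between -0.150 and 0.115 in their deviations, so the numbers were not taken as pairs. With the replicate block, 781 and 1371 genes were called at 18 h and between 72 h and 18 h, the 4 member calls at 18 h remained, and Stat2 (-1.98, adjusted p = 0.0603) and Stat3 (-0.51, adjusted p = 0.0660) lost theirs between 72 h and 18 h.

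Directions turned only for values that were not called. Irf2 at 18 h was -0.002 by limma-trend and -0.072 to 0.122 with 1 library left out, and it was -0.058 to 0.139 between 72 h and 18 h. At 72 h against control, Irf1 was 0.008 without the filter, and the leave-one-out ranges were -0.152 to 0.164 for Irf1, -0.588 to 0.354 for Stat2, -0.018 to 0.121 for Irf2, -0.444 to 0.183 for Irf7, -0.179 to 0.204 for Irf8, -0.176 to 0.086 for Irf9 and -0.087 to 0.334 for Socs3. In that comparison the log2 ratio of Irf1 to Irf2 ranged from -0.214 to 0.195 and that of Socs1 to Socs3 from -0.264 to 0.371. The causes were not tested. The smallest raw count of a member in any library was 68 (Socs1, control replicate 3).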
